A study of Mus musculus with 2 samples.

Results

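Isolated H3K4me3 events that were higher in Dicer WT than in Dicer KO cells, with no listed difference in either other mark beside them, were described. Events of the WT-higher H3K4me3 list were merged where they lay at most 5 kb apart, and regions of exactly 1 event were kept. Those with no event of the H3K27ac or H3K36me3 lists within 5 kb, in either direction, and on chromosomes other than 9 and X, made up the set. It held 559 events, 23.7% of the 2354 merged WT-higher H3K4me3 regions (95% interval 22.0 to 25.5), out of 21418 events in the 6 lists of the series. The 2354 include regions of chromosomes 9 and X. Of the 1672 regions on the other chromosomes, these events made up 33.4% (31.2 to 35.8). The values that chose them were the position and the listing of H3K4me3 as WT-higher, so the lower level in KO is a property of the choice and is given as a description with no test.

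Both genotypes were lines of mesenchymal stromal cells from mouse, monoclonal and immortalized, which the titles name fibroblasts. They were grown in Alpha-MEM with fetal bovine serum, untreated and fixed with formaldehyde. The Dicer KO cells lack Dicer and the Dicer WT cells carry it. Labels give 1 sample per genotype, for H3K27ac alone. The design text names 2 replicates, which the lists do not hold apart. The H3K4me3 lists carry the genotype names with 1 value per genotype, so no replicate error could be given. Intervals of ratios and shares below cover counting error only, and those of medians cover the uncertainty of a median taken over events. With monoclonal lines, a difference between genotypes and a difference between clones cannot be told apart. Cell identity was not checked, since the lists hold positions of differing events (mouse build mm9) and no gene. Total reads per library are unknown. A median isolated event had 121 unscaled reads in KO and 234 reads in WT.

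Dicer is the ribonuclease that cuts microRNA precursors into mature microRNAs, which repress messenger RNAs. H3K4me3 is laid down by the SET1 and MLL methyltransferase complexes, which are recruited to unmethylated CpG-rich promoters, and is removed by KDM5 demethylases. H3K27ac, written by the acetyltransferases CBP and p300, marks active enhancers and promoters, and H3K36me3, written by SETD2 with elongating RNA polymerase II, marks transcribed gene bodies. A promoter that is active in a cell usually carries H3K4me3 with H3K27ac, whereas CpG-rich promoters with little transcription can carry H3K4me3 at a low level.

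The program behind the H3K4me3 lists, GEM, reports for some events a short DNA word found at enriched frequency around events. The WT-higher list named 3 such words of 8 bases, shown because they are the sequence that the list gives for its events, with capitals at positions 2 and 6, counted from the 5′ end, where the words differ.
first word: cGcccGgt
second word: cCcccGgt
last word: cGcccTgt
Of the 559 isolated events, 39 carried a word, 6.98% (5.01 to 9.41), against 6.37% of all 5542 WT-higher events. The first word was named at 13 isolated events, the second at 12 and the last at 14. Of the 39, 18 were on the plus strand and 21 on the minus strand. All 3 words are rich in G and C, and a word match is a description of the listing, not a bound site. In the RefSeq promoter windows of build GRCm38.p6 (250 bases before to 50 after each gene's start), searched on both strands, the first word occurred in 0.861% of 32851 windows, the second in 0.661% and the last in 1.00%. These windows were not matched to the events, because the builds differ.

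Isolated events with a word had a median KO to WT ratio of 0.293 (n = 39), and those without one 0.254 (n = 520). The ratio is the KO reads at the authors' scale divided by the WT reads, so that a value below 1 is lower in KO. Order-statistic intervals of these medians were 0.184 to 0.341 with a word and 0.239 to 0.273 without. They give the uncertainty of a median taken over events, which are not replicates, so nothing is read from their overlap. For each word the event with the largest −log10 q is given. That with the first word, at 92656060 on chromosome 6, had 25.8 scaled reads in KO against 479 reads in WT, making the KO to WT ratio 0.0539 (0.0401 to 0.0711). With the second word, the event at 4642575 on chromosome 7 had 115.6 scaled reads in KO and 703 reads in WT, with the ratio at 0.164 (0.142 to 0.190). For the last word, the event at 18265632 on chromosome 10 had 43.1 scaled reads in KO and 496 reads in WT, which left the ratio at 0.0869 (0.0692 to 0.109). KO reads at the first and last of these lay below the chromosome's KO background reads, at 0.433 and 0.735 times that level, and at the second above it, at 2.06 times. Background reads are the deposited expected reads, 1 value per chromosome and genotype, which the sources used here do not define.

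Across the 559 isolated events, KO had 1.8 to 625 scaled reads with a median of 55.7, and WT had 85 to 1635 reads with a median of 234. The median ratio was 0.255 (quartiles 0.141 and 0.348). KO was at 0.5 of WT or lower in 550 events (98.4%), beside 82.5% of the 6280 events of both H3K4me3 lists and 93.5% of the WT-higher list. It was at 0.25 or lower in 274 events (49.0%), beside 23.8% of both lists and 26.9% of the WT-higher list. It was at 0.1 or lower in 90 events (16.1%), beside 7.90% of both lists and 8.95% of the WT-higher list. Since the rule took events from the WT-higher list, these shares are set side by side and nothing is read from them. The upper limit of the counting interval lay below 0.5 in 519 events (92.8%). It did so in 98.4% of 790 WT-higher regions of at least 2 events with no other mark within 5 kb. Among 69 single events with another mark within 5 kb the share was 98.6%.

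**Figure D1:**
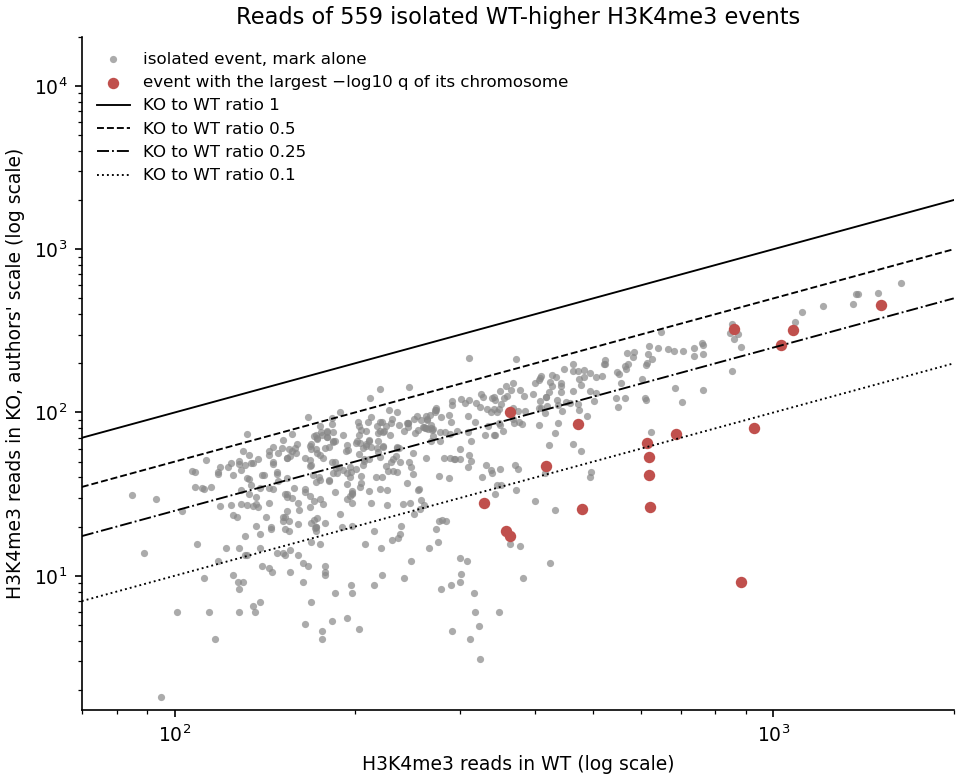
H3K4me3 reads in KO at the authors' scale (vertical, log scale) against reads in WT (horizontal, log scale) for the 559 isolated events (grey points), with the event of largest −log10 q on each chromosome in red and lines at KO to WT ratios of 1, 0.5, 0.25 and 0.1. All points lie below the line of equal reads, 550 at or below the line at 0.5, and the points at or below the line at 0.1 number 90.

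The plot of KO reads against WT reads shows a dense band between ratios of 0.25 and 0.5, with 276 events, and a wide tail under it. Events of the band were somewhat deeper, with a median of 85.7 scaled reads in KO and 262 reads in WT. Those at ratios of 0.1 or less had medians of 11.3 scaled reads in KO and 227 reads in WT. Depth in WT and the ratio were thus only weakly related within the set (Spearman's rho 0.0980 over 559 events, which are not replicates).

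The scale matters for the size of these ratios. In the WT-higher H3K4me3 list the authors had multiplied KO reads by 0.4605, as recovered from the values. When unscaled reads were instead taken relative to the chromosome's background in the same genotype, here called the scale of own background, the median ratio of the isolated events was 0.439 (quartiles 0.240 and 0.611). KO was then at 0.5 or lower in 324 events (58.0%, beside 26.6% of both lists) and at 0.25 or lower in 143 (25.6%, beside 11.0%). It was at 0.1 or lower in 47 (8.41%, beside 4.43%). A ratio above 1 at that scale was found in 4 of the 559. The 4 were at 116497495 on chromosome 4 (1.36), 81111736 on chromosome 10 (1.09), 73729745 on chromosome 5 (1.07) and 16885502 on chromosome 7 (1.02). They are among the 9 events with a ratio above 0.5 at the authors' scale. The highest, on chromosome 4, had 215 scaled reads in KO and 310.0 reads in WT, making the KO to WT ratio 0.694 (0.600 to 0.803).

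Set against background, the isolated events differed in how much signal KO retained. KO reads lay below the KO background of the chromosome in 292 of 559 events (52.2%, 48.0 to 56.4), beside 15.6% of the 6280 events of both lists and 17.7% of the WT-higher list. WT reads lay above the WT background in all 559. They did so in all 5542 events of the WT-higher list, where the lowest level was 1.18 times background, so this is no trait of the set. In 139 events KO was under 0.5 times its background, with a median ratio of 0.0813 and medians of 15.7 scaled reads in KO and 177 reads in WT. At the other end, 101 events had KO reads of at least 2 times background. These had medians of 178 scaled reads in KO and 523 reads in WT and a median ratio of 0.352. These groups were cut on the KO level itself, and listing as WT-higher holds KO under WT, so nothing is read from the rise of both levels together.

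The event with the largest −log10 q was named on each of the 18 chromosomes. In 9 of the 18 the KO to WT ratio was 0.1 or less, beside 16.1% of the 559 isolated events and 8.95% of the WT-higher list. A pick by −log10 q favours low ratios, so nothing is read from that number. At 33413415 on chromosome 11, KO had 9.1 scaled reads against 882 reads in WT, with the ratio at 0.0103 (0.00635 to 0.0162). KO stood there at 0.0949 times its background and WT at 5.48 times, and this event also had the largest −log10 q of the set in the authors' deposited table, 243. Next by −log10 q, the event at 49475268 on chromosome 2 had 80.3 scaled reads in KO and 929 reads in WT, which left the ratio at 0.0864 (0.0729 to 0.102). It was the only one of the 9 with KO above background, at 1.20 times. At 26800449 on chromosome 17, KO had 26.3 scaled reads and WT 621 reads, making the KO to WT ratio 0.0424 (0.0316 to 0.0555). At 136364597 on chromosome 5 the reads were 41.5 in KO and 620 in WT, with the ratio at 0.0670 (0.0530 to 0.0835). Both stood well under the KO background, at 0.317 and 0.657 times.

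The other leading events of this kind lay on chromosomes 6, 13, 14, 18 and 19. Chromosome 14, at 55531731, had 17.5 scaled reads in KO and 363 reads in WT, which left the ratio at 0.0482 (0.0336 to 0.0674). Chromosome 13, at 53557797, had 18.9 scaled reads in KO and 358 reads in WT, making the KO to WT ratio 0.0528 (0.0372 to 0.0730). Beside this event WT-higher H3K36me3 lay 5.147 kb away and WT-higher H3K27ac 9.957 kb away. WT-higher H3K27ac lay 12.4 kb from the event on chromosome 14 and 6.53 kb from that on chromosome 2. Leading events on chromosomes 2, 13 and 14 thus had a second mark in the same direction not far outside the 5 kb. This was not particular to leading events with the lowest ratios. That on chromosome 4, with a ratio of 0.296, had WT-higher H3K36me3 9.16 kb away. On chromosomes 5, 17, 18 and 19 the nearest event of another mark was KO-higher H3K27ac, 56.9, 107.9, 123.4 and 122.3 kb away. On chromosomes 6 and 11 it was WT-higher H3K36me3, 142.8 and 35.6 kb away. On chromosome 18, at 36178348, KO had 28.1 scaled reads and WT 329 reads, with the ratio at 0.0854 (0.0639 to 0.112). On chromosome 19, at 53751877, KO had 53.4 scaled reads and WT 620 reads, which left the ratio at 0.0861 (0.0700 to 0.105). The remaining one, on chromosome 6, is the event with the first word described above.

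In 4 chromosomes the leading event had a ratio between 0.1 and 0.2. KO had 74.2 scaled reads and WT 688 reads at 66222229 on chromosome 1, making the KO to WT ratio 0.108 (0.0902 to 0.128). At 31147876 on chromosome 7, KO had 65.4 scaled reads and WT 615 reads, with the ratio at 0.106 (0.0880 to 0.128). KO reads at both were above background, at 1.57 and 1.17 times. The event at 63863849 on chromosome 16 had 47.0 scaled reads in KO and 417 reads in WT, which left the ratio at 0.113 (0.0898 to 0.140). That at 100814416 on chromosome 15 had 85.1 scaled reads in KO and 471 reads in WT, making the KO to WT ratio 0.181 (0.152 to 0.215). KO reads were below background at the event on chromosome 16, at 0.888 times, and above it at that on chromosome 15, at 1.21 times.

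On the other 5 chromosomes the leading event was strong in both genotypes, with KO at 2.59 to 6.28 times its background. At 113580586 on chromosome 8, KO had 454 scaled reads and WT 1512 reads, with the ratio at 0.301 (0.277 to 0.326). At 126145578 on chromosome 4, KO had 319 scaled reads and WT 1079.7 reads, which left the ratio at 0.296 (0.268 to 0.325). Both were also among the strongest events in WT, at 11.8 and 9.24 times background. At 81817309 on chromosome 10, KO had 260.1 scaled reads and WT 1029 reads, making the KO to WT ratio 0.253 (0.228 to 0.280). At 28680623 on chromosome 3, KO had 327 scaled reads and WT 858 reads, with the ratio at 0.381 (0.344 to 0.421). On chromosome 12 the leading event, at 37108480, came with 100.4 scaled reads in KO and 363 reads in WT, which left the ratio at 0.277 (0.233 to 0.328). Its −log10 q in the authors' deposited table was 35.0, the smallest of the 18.

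**Figure D2:**
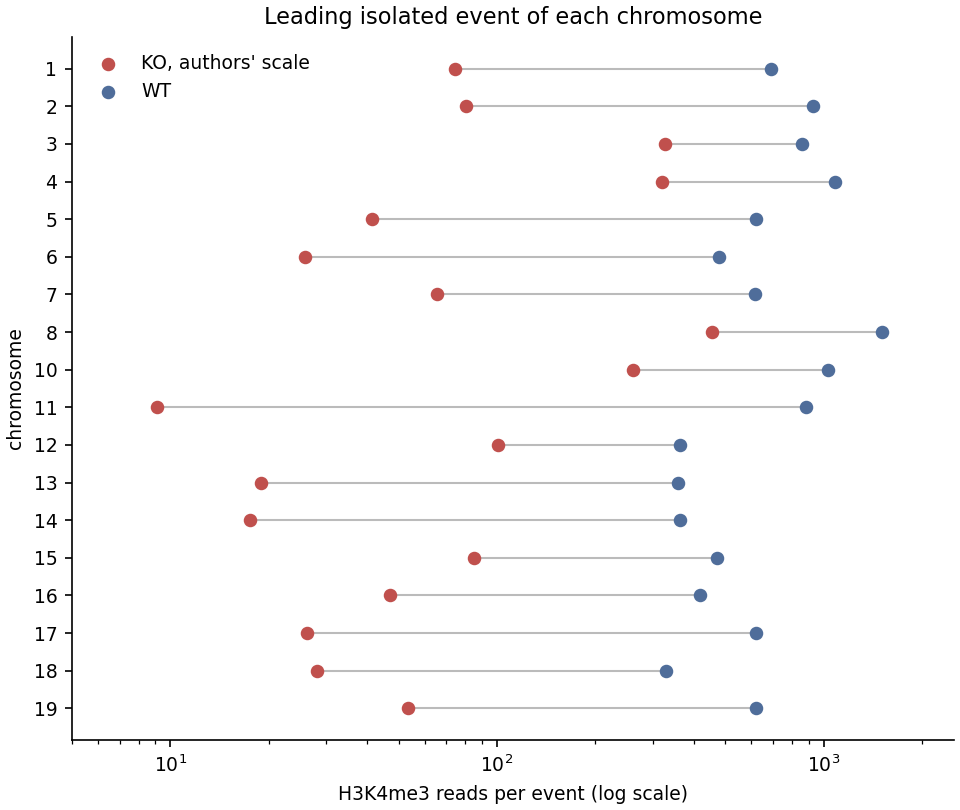
H3K4me3 reads (horizontal, log scale) of the isolated event with the largest −log10 q on each of 18 chromosomes (rows), with KO at the authors' scale in red and WT in blue, joined by a line. The line is longest on chromosome 11, with 9.1 scaled reads in KO and 882 reads in WT, and short on chromosomes 3, 4, 8, 10 and 12, where KO kept 100.4 to 454 scaled reads.

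The plot of leading events shows that events with few KO reads and events with strong signal in both genotypes both lead their chromosomes. The 8 isolated events with the lowest upper limit of the ratio interval had almost no signal in KO, which had 3.1 to 9.7 scaled reads, from 6.73 to 21.1 unscaled reads, against 291 to 882 reads in WT. Their KO levels were 0.0491 to 0.134 times background, and their ratios ran from 0.00957 to 0.0254 at the authors' scale and from 0.0173 to 0.0448 at the scale of own background. Besides the event on chromosome 11, they include 22252130 on chromosome 5, with 3.1 scaled reads in KO and 324 reads in WT, making the KO to WT ratio 0.00957 (0.00397 to 0.0207). That at 121886410 on chromosome 10 had 4.1 scaled reads in KO and 311 reads in WT, with the ratio at 0.0132 (0.00604 to 0.0256). Those at 13670803 on chromosome 4 and 54398523 on chromosome 13 had ratios of 0.0152 (0.00777 to 0.0285) and 0.0158 (0.00751 to 0.0295). Ratios at 82069273 on chromosome 17, 51560060 on chromosome 7 and 33994766 on chromosome 8 were 0.0172 (0.00907 to 0.0298), 0.0189 (0.00991 to 0.0327) and 0.0254 (0.0155 to 0.0393). The nearest event of another mark was 35.6 kb away on chromosome 11 and 220.4 to 819 kb away for the other 7.

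The 5 isolated events with the most reads in WT stood at the other end. They had 454 to 625 scaled reads in KO and 1376 to 1635 reads in WT, with ratios of 0.301 to 0.387, and KO stood at 5.70 to 6.69 times its background. Besides that on chromosome 8, 4 lay within the first 7 Mb of chromosome 19, at 4012438, 4879027, 4962527 and 6242080. At the scale of own background these 4 had ratios of 0.783, 0.829, 0.834 and 0.825, and background on chromosome 19 was 203 reads in KO and 201 reads in WT. The 5 events with the lowest −log10 q in the authors' deposited table, 2.04 to 2.27, had 4.1 to 59.4 scaled reads in KO and 117 to 157 reads in WT. Their ratios were spread widely, from 0.0350 to 0.383, so a low −log10 q did not go with 1 size of difference.

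Counts of isolated events followed the chromosomes unevenly. Chromosome 10 held the most, 62, and chromosome 4 held 52, while chromosome 11 held 16. As a share of the chromosome's WT-higher H3K4me3 regions, isolated events made up 15.8% (10.2 to 23.0) on chromosome 19 and 27.8% (22.0 to 34.2) on chromosome 10, but 53.5% (37.7 to 68.8) on chromosome 12 and 48.2% (37.1 to 59.4) on chromosome 1. The stretch of 10 Mb with the most was 120 to 130 Mb of chromosome 4, with 10 isolated events among 28 WT-higher regions. Few isolated events neighboured one another: 34 of 559 (6.08%) had another within 50 kb. The only pairs within 10 kb lay 8803 bp apart at 69145745 and 69154548 on chromosome 11, and 8572 bp apart at 61656607 and 61665179 on chromosome 14. Ratios on chromosome 14 were 0.157 (0.119 to 0.206) and 0.0786 (0.0563 to 0.107), and those on chromosome 11 were 0.455 (0.376 to 0.549) and 0.296 (0.241 to 0.362).

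Median ratios by chromosome ran from 0.198 on chromosome 2 to 0.312 on chromosome 10, and leaving out any 1 of the 18 chromosomes moved the median of the set only between 0.247 and 0.261. At the scale of own background the medians ran from 0.319 on chromosome 2 to 0.633 on chromosome 10, with 0.602 on chromosome 19 and 0.570 on chromosome 4. Background differed as well. KO background was 1.07 times WT background on chromosome 10, 1.01 times on 19 and 1.11 times on 4, against 1.35 times on chromosome 2 and 1.54 times on chromosome 12. The part of this difference in the medians was not tested. KO reads lay below background in 32.3% of isolated events on chromosome 10, 34.8% on chromosome 12 and 38.5% on chromosome 4, and on chromosomes 11 and 3 in 68.8% and 68.0%.

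**Figure D3:**
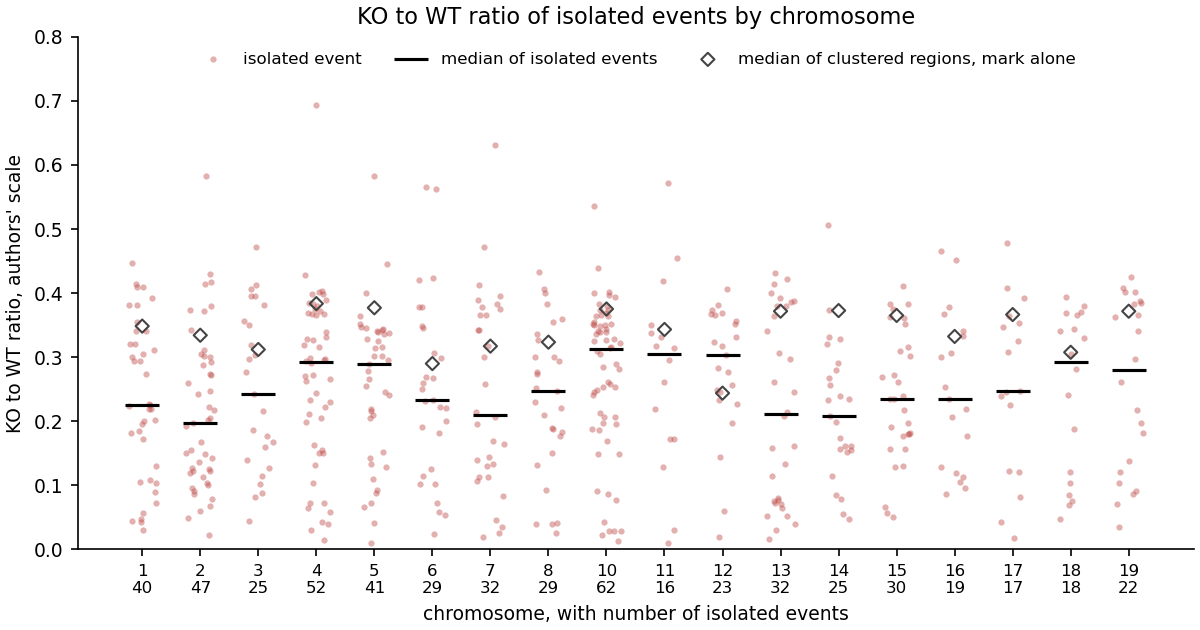
KO to WT ratio of H3K4me3 at the authors' scale (vertical) of each isolated event (red points) by chromosome (horizontal, with the number of isolated events under it), with a black bar at their median and an open diamond at the median of clustered WT-higher regions of the mark alone. Medians of the isolated events lie between 0.198 and 0.312, below the diamond on 17 of 18 chromosomes.

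Isolated events were set beside the WT-higher H3K4me3 regions most like them. These were 790 clustered regions of at least 2 events, also with no other mark within 5 kb, and 69 single events that did have an event of another mark within 5 kb, all on the same chromosomes. The median ratio was 0.255 in isolated events, 0.368 in clustered regions (quartiles 0.306 and 0.390) and 0.185 in the single events beside another mark (0.0972 and 0.290). At the scale of own background the medians kept this order, with 0.439, 0.662 and 0.332. KO reads lay below background in 52.2% of isolated events, 3.67% of clustered regions and 62.3% of the single events beside another mark. Reads of a clustered region are summed over its events against a background of 1 event, which sets that share low. The isolated events had a lower median ratio than the clustered regions on 17 of 18 chromosomes at either scale, and a higher one on chromosome 12, with 0.303 against 0.244 (9 clustered regions).

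**Figure D4:**
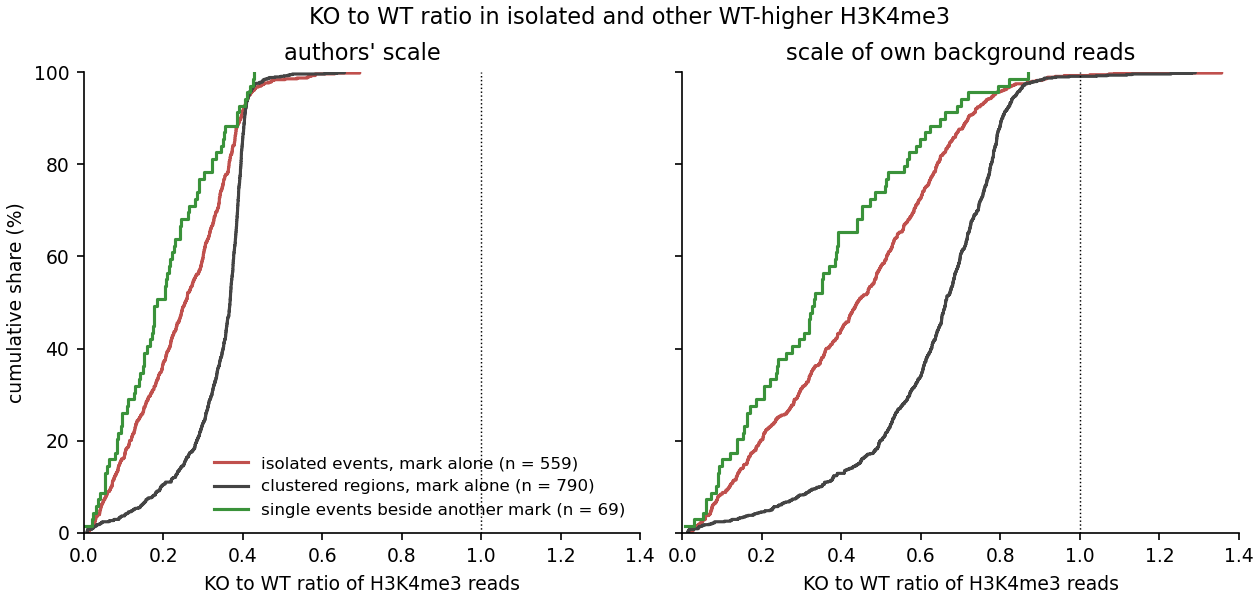
Cumulative share (vertical, %) of KO to WT ratios (horizontal) of 559 isolated events in red, 790 clustered regions of the mark alone in grey and 69 single events beside another mark in green, at the authors' scale (left) and at the scale of own background reads (right), with a dotted line at equal reads. At the authors' scale the curve of isolated events climbs over a wide range of ratios, with quartiles of 0.141 and 0.348, while that of clustered regions climbs steeply around its median of 0.368.

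Depth differed between these sets, with a median of 234 reads in WT for isolated events, 1904 for clustered regions and 249 for the single events beside another mark. Events were therefore compared at like WT reads, taking single events of the clustered regions. Between 150 and 250 reads in WT, the median ratio was 0.231 in 218 isolated events and 0.321 in 265 events of clustered regions. From 250 to 500 reads it was 0.260 in 187 isolated events and 0.343 in 614 clustered ones. At 500 reads or more it was 0.327 (n = 67) and 0.365 (n = 1418), and under 150 reads it was 0.239 (n = 87) and 0.258 (n = 41). Isolated events had the lower median in each of the 4 ranges, by less at both ends. The sets come from the same list, with 1 value per genotype, so their difference has no replicate check.

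Whole counts went with the choice of single events. GEM divides reads between nearby events by likelihood, which can leave fractional counts, and 471 of 559 isolated events (84.3%, 81.0 to 87.2) had a whole WT count, against 9.32% of the 2338 events in clustered regions. Single events beside another mark, chosen by the same limit on neighbouring H3K4me3 events, had a like share, 57 of 69 (82.6%, 71.6 to 90.7). The remaining 88 isolated events had a fractional count, and whether an unlisted event lay beside them was not tested. Their ratio had a median of 0.251, and that of the events with a whole count 0.256. WT reads were more numerous with a fractional count, with a median of 373 against 219. An event of H3K27ac or H3K36me3 that did not differ between genotypes would not be listed, so "mark alone" means no listed difference and not the absence of the other marks.

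Listed differences around isolated events were counted beyond the 5 kb of the rule, which itself removes close neighbours. No event of any of the 6 lists lay within 25 kb of 443 of the 559 (79.2%) or within 100 kb of 251 (44.9%). These shares were not taken for clustered regions, so they are not read as a trait of the isolated events. The most remote were 81449417 on chromosome 5, 46175099 on chromosome 12 and 25043055 on chromosome 3, with no listed event for 3613, 3124 and 2009 kb. Within 50 kb, KO-higher H3K27ac was found beside 55 isolated events (9.84%, 7.50 to 12.6) and WT-higher H3K27ac beside 43 (7.69%, 5.62 to 10.2). For clustered regions these shares were 13.4% (11.1 to 16.0) and 5.19% (3.75 to 6.98). WT-higher H3K36me3 lay within 50 kb of 51 isolated events (9.12%, 6.87 to 11.8) and of 23.0% of clustered regions (20.1 to 26.1), and KO-higher H3K36me3 within 50 kb of 7 isolated events (1.25%).

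The nearest H3K27ac event, at any distance, was KO-higher for 369 isolated events (66.0%, 61.9 to 69.9), where 83.9% of the listed H3K27ac events on the same chromosomes were KO-higher. For clustered regions of the mark alone the share was 72.0% (68.8 to 75.1). The share of the lists counts events and the other shares count positions. These are unlike measures, so nothing is read from the difference. Among the 98 isolated events with an H3K27ac event within 50 kb, the nearest was KO-higher in 55 (56.1%, 45.7 to 66.1). Median ratios were also taken by the direction of this neighbour. Isolated events next to KO-higher H3K27ac had a median ratio of 0.331 (quartiles 0.211 and 0.377, n = 55), those next to WT-higher H3K27ac 0.209 (0.0857 and 0.327, n = 43), and the 461 with none within 50 kb 0.248. For H3K36me3 the medians were 0.373 beside KO-higher (n = 6), 0.197 beside WT-higher (n = 51) and 0.260 with none (n = 502). Median ratios were thus lowest where the neighbouring event was also WT-higher. Quartile ranges overlap for H3K27ac, and only 6 events had KO-higher H3K36me3 as the nearest. Events are not replicates and were listed on this same contrast, so nothing is read from these medians. The same medians were not taken for clustered regions.

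**Figure D5:**
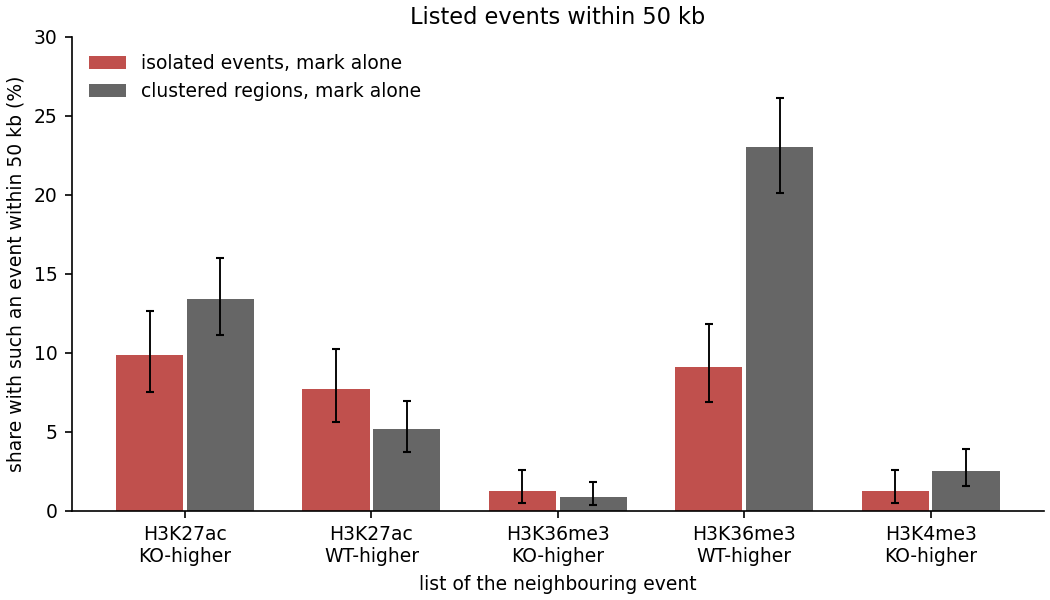
Share (vertical, %) of 559 isolated events (red) and 790 clustered regions of the mark alone (grey) with an event of each other list within 50 kb (horizontal), with exact 95% counting intervals. WT-higher H3K36me3 lay within 50 kb of 9.12% of isolated events and 23.0% of clustered regions, and the other lists differed less.

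At the limits of the rule for the other marks, ratios on either side overlapped. Of the isolated events nearest to H3K27ac, 134087391 on chromosome 1 lay 5173 bp away with a ratio of 0.195, 122638053 on chromosome 4 lay 5563 bp away with 0.298, and 174493289 on chromosome 1 lay 5569 bp away with 0.225. Single events just excluded lay 4839, 4818 and 4693 bp from H3K27ac and had ratios of 0.265, 0.352 and 0.110. Nearest to H3K36me3 were isolated events at 5147, 5363 and 6089 bp with ratios of 0.0528, 0.188 and 0.373, and the single events just excluded, at 4844, 4642 and 4184 bp, had 0.345, 0.176 and 0.222. For H3K4me3 itself, isolated events at 5153, 5214 and 5380 bp from the next WT-higher event had ratios of 0.337, 0.30 and 0.380. Of the clustered regions of the mark alone with 2 events, the widest had a gap of 4754 bp at 35547822 on chromosome 2, with ratios of 0.498 and 0.419. The next widest gaps were 2805 bp, with ratios of 0.429 and 0.392, and 1738 bp, with ratios of 0.0753 and 0.169. Ratios of the first 2 pairs were thus above those of the isolated events just inside the limit, and ratios of the last pair below them. Gaps inside regions of more than 2 events were not taken, and some may lie nearer the limit.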

How the data were processed

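Mouse H3K4me3, H3K27ac and H3K36me3 events were taken from 6 lists of the authors, 1 per mark and direction, made with GEM or GPS per the file names. Mouse build mm9 and TopHat 1.4 are named in the submitters' processing notes, without their roles. Per the file headers, each event has a deposited estimated count in the higher genotype, a scaled signal of the other genotype, a fold (their ratio), expected reads, −log10 q and p values starting at 2.00 for q in the WT-higher H3K4me3 list, shape scores and a log10 k-mer score. The deposited shape scores and log10 k-mer scores were not used.

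The scaling factor, the value of 1 read, was recovered by a search from 0.3 to 3 in steps of 0.0005. Values of the other genotype counted as whole with a tolerance of 0.06. The factor chosen was that whose share of whole values most exceeded the share given by the tolerance alone. For KO in the WT-higher H3K4me3 list the factor recovered was 0.4605. There, 54.3% of values were whole over all events with whole counts, and 75.8% among the isolated events, which gave the same factor alone. Ratios have exact conditional binomial (Clopper-Pearson) 95% intervals of unscaled reads, rounded to whole reads, and shares exact Clopper-Pearson intervals. Medians have order-statistic intervals. Intervals of ratios and shares cover counting error only, and those of medians cover the uncertainty of a median taken over events. None covers replicate error, and sequenced reads that carry no molecular identifier need not be independent. No isolated event had 0 reads in KO.

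The members, comparisons and alternatives were chosen with earlier results of these data known. Named events were fixed by rule: the largest −log10 q per chromosome, the 8 lowest upper limits of the ratio, the 5 most WT reads, the 5 lowest −log10 q, the 3 nearest to each 5 kb limit on either side, and the 3 farthest from any listed event. For H3K4me3 the excluded side was taken only from clustered regions of exactly 2 events, with no other mark within 5 kb. Events named for a word, for a ratio above 1 at another scale or as close pairs were chosen after their values were seen. No test was run, since the lists give 1 value per genotype. No annotation or genome of build mm9 was used here, so no gene or genomic sequence is given. The step search, the membership rule and the intervals were tested on simulated data. The versions were matplotlib 3.10.9, SciPy 1.17.1, NumPy 2.4.6 and pandas 2.3.3 under Python 3.11.15.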

Additional observations from a re-analysis of the deposited data

How the results depend on the processing

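Of 92 recalculated values, 75 stayed within 1.5 times the reported count or within the interval of the reported share or median. With each genotype divided by its own background, the median ratio of isolated events was 0.439, against 0.451 with 1 median background per genotype. The numbers at 0.5 or lower were 324 and 312, and those at 0.25 or lower 143 and 140. For clustered regions the medians were 0.662 and 0.651, and for single events beside another mark 0.332 and 0.328. With at least 200 reads in WT, 339 events were at 0.5 or lower and 149 at 0.25 or lower. With at least 50 unscaled reads in KO the median ratio was 0.30 and 165 events were at 0.25 or lower. These minimums leave fewer events by construction. Requiring a −log10 q of at least 5 raised the median WT reads to 267. The share of WT-higher regions that were isolated was 21.2% with 20 kb free of other marks and 29.4% with chromosomes 9 and X included. Regions of chromosomes 9 and X are in the base of both shares. The like value for the 29.4% is therefore the 33.4% of regions on the other chromosomes. The 45 events named by the fixed rule kept a ratio below 1 at both background scales, up to 0.834 at the own background scale, unlike the 4 events above 1 given in the text, although 40 of the 45 moved outside their counting interval at each. Whole WT counts and leaving out chromosomes 4 and 10 were added after seeing the data and gave median ratios of 0.256 and 0.243.

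No paired analysis was possible because each list holds a single value for either genotype. For that reason no setting leaves out a replicate. Only events past the authors' threshold at the authors' scale are listed, so ratios closer to 1 are missing from every set. Few KO reads limit the lowest ratios.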

Other observations

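Events meeting the same rule on the 2 chromosomes left out were described apart. On chromosome 9 their median ratio lay above that of every chromosome in the set, at either scale. On chromosome X it lay within the range of those chromosomes, at either scale. On chromosome 9 there were 86 such events among 537 WT-higher H3K4me3 regions (16.0%), with medians of 100.7 scaled reads in KO and 409 reads in WT and a median ratio of 0.321 at the authors' scale. At the scale of own background their median ratio was 0.829, and 10 of the 86 were above 1. KO background on chromosome 9 was 0.840 times WT background. On chromosome X there were 48 among 145 regions (33.1%), with medians of 32 scaled reads in KO and 164 reads in WT. Their median ratio was 0.214 at the authors' scale and 0.422 at the scale of own background, with 0 of 48 above 1.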
